A study of Mus musculus with 4 samples.

Results

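Expression of 10 Eph receptor genes was examined in the embryonic mouse cortex, in neural progenitor cells (NPCs) and in young neurons. The genes were Epha2, Epha3, Epha4, Epha5, Epha7, Ephb1, Ephb2, Ephb3, Ephb4 and Ephb6, taken by gene symbol from a table of 23240 rows, in which all 10 were found. Cells came from cortices at embryonic day 15.5 of mouse embryos that carried both a Nestin-GFP and a DCX-mRFP reporter, from Nestin-GFP heterozygotes bred with DCX-mRFP homozygotes. Cells sorted as green only were called NPCs, and cells that also carried the red reporter were called neurons. Each group held 2 RNA-seq libraries, called duplicates in the labels, where their litters are not named. A p-value here thus rests on the spread between duplicates only, which may be technical. The test pools part of that spread over genes.

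Eph receptors are the largest family of receptor tyrosine kinases. They bind ephrins on neighbouring cells, EphA receptors mostly the lipid-anchored ephrin-A ligands and EphB receptors mostly the transmembrane ephrin-B ligands, while EphA4 binds both classes. Signals run into the receptor-bearing cell and, through the ephrin, also back into the other cell, and they act on the cytoskeleton to repel or attach cells. In the developing cortex they are known from axon guidance, from the spread and columns of migrating neurons, and from contacts among progenitors, and in blood vessels from the boundary between arteries and veins.

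Depth was close to equal, at 52611828 to 55615142 counts per library. Levels are given in CPM (counts over the scaled library total, brought to a common total) and changes as log2 of neurons over NPCs ± standard error, with n = 2 libraries per group. Radial glia and pan-neuronal markers followed the sort labels. Higher in NPCs were 10 of 10 radial glia markers, at a summed level of 3083 to 3106 CPM in NPCs and 621 to 644 CPM in neurons. Higher in neurons were 10 of 11 pan-neuronal markers, at 2334 to 2374 CPM in NPCs and 9026 to 9321 CPM in neurons. These lists include the reporter genes Nes and Dcx of the sort itself. Markers of several other cell types lay on the NPC side too. All 12 of 12 endothelial markers did, at a summed level of 268 to 274 CPM in NPCs and 11.3 to 11.9 CPM in neurons. The same held for 7 of 7 mural markers (235 to 242 against 10.8 to 11.0 CPM), 7 of 7 markers of oligodendrocyte precursors (181 to 187 against 2.96 to 3.86 CPM), 10 of 10 microglia markers (51.7 to 52.3 against 24.7 to 25.7 CPM) and 4 of 5 markers of the meninges (32.4 to 34.1 against 2.96 to 3.44 CPM). Interneuron markers split, with 3 of 9 higher in neurons, 3 higher in NPCs and 3 not called. No marker of these lists was at 0 in both libraries of a group. In these sorted bulk samples, fewer cells of a type and less RNA per cell cannot be told apart.

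The receptors are close relatives, so the sequences that they share bear on whether reads can be told apart. The longest run of bases common to the coding sequences of any pair of the 10 genes was 38 bases, shared by Ephb1 and Ephb3, followed by 35 bases shared by Epha7 and Ephb1. Both runs lie in the part that encodes the kinase domain, and the capitals mark the stretch that the Epha7 and Ephb1 run has in common with the first.

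Ephb1 and Ephb3: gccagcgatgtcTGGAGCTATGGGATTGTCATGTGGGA
Epha7 and Ephb1: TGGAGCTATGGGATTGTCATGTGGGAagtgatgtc

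Both are far shorter than a read of 101 bases. In the GENCODE M21 transcripts, 0 windows of 101 bases from a receptor gene matched another Eph or ephrin gene exactly. The only windows found in any other gene were 58 of 7097 (0.817%) of Ephb1, which lie in the opposite-strand gene Gm26846. Besides Ephb1, the exons of Ephb4 overlap an opposite-strand gene, Zan, by 33 bases. Matches with mismatches were not searched.

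The start site windows of 4 receptors are shown because they form pairs of opposite change whose count ratios are reported, namely the abundant Epha4 and Epha5 and the scarcer Ephb4 and Ephb1. Each holds 250 bases before and 50 after the start in RefSeq (GRCm38.p6), 5′ to 3′ on the strand of the gene, with CG pairs in capitals.

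Epha4 start site window, chr1:77515039-77515338, minus strand: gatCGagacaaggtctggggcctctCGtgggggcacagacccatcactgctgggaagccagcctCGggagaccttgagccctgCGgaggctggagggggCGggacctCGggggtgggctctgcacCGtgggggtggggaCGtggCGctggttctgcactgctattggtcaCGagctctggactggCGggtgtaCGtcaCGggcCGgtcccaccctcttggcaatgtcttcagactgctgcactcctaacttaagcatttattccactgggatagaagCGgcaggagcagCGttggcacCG
Epha5 start site window, chr5:84417333-84417632, minus strand: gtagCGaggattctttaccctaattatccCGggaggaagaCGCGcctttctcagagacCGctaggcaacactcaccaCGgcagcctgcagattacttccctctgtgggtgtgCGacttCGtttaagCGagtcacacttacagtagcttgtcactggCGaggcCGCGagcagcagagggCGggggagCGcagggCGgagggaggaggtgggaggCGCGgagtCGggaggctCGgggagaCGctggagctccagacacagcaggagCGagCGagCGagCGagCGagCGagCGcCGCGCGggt
Ephb4 start site window, chr5:137349859-137350158, plus strand: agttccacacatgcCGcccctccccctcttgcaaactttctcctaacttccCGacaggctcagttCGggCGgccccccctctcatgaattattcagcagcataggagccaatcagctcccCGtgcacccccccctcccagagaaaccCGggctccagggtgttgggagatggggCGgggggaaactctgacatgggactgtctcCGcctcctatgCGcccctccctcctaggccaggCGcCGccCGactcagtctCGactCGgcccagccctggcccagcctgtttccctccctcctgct
Ephb1 start site window, chr9:102354644-102354943, minus strand: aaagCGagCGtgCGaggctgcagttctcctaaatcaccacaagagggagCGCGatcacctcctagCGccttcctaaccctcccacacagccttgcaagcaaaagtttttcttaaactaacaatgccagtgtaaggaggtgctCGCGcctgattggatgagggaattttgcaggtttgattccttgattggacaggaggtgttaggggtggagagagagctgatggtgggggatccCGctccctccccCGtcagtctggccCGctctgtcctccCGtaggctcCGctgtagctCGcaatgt

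The windows held 17 CG pairs for Epha4, 30 for Epha5, and 14 each for Ephb4 and Ephb1. Across the 10 receptors the number ran from 10 in Epha2 to 34 in Ephb6, beside a median of 7 and an upper quartile of 20 over 32851 windows of the same length. On either strand, the E-box CAGATG was in 0 of 10 receptors, CAGCTG in 1 (Ephb3) and the Rbpj-type motif GTGGGAA in 1 (Epha7), beside 17.2%, 16.3% and 6.38% of all windows. The letters are a description of these windows and say nothing of binding.

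The receptor family moved in both directions. Of the 10 receptors, 6 were higher in neurons (Epha3, Epha5, Epha7, Ephb1, Ephb2 and Ephb6) and 4 were higher in NPCs (Epha2, Epha4, Ephb3 and Ephb4) at a Benjamini-Hochberg adjusted p under 0.05 over 15292 genes, from the quasi-likelihood test of edgeR. Of all genes tested 72.6% passed, 35.8% as higher in neurons and 36.9% as higher in NPCs, so a call by itself sets no gene apart here. The groups did not overlap for 10 of 10 receptors, beside 86.0% of all genes. The median log2 change was 0.26 over the receptors and -0.02 over all genes tested. Among calls of 2-fold or more, 1 receptor was higher in neurons (11.5% of all genes) and 3 in NPCs (18.5% of all genes). EphA and EphB receptors split alike at this threshold, with 3 of 5 higher in neurons and 2 of 5 higher in NPCs in each class. The EphB split counts Ephb2 and Ephb6, whose calls were lost under some of the alternative settings given below.

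**Figure D1:**
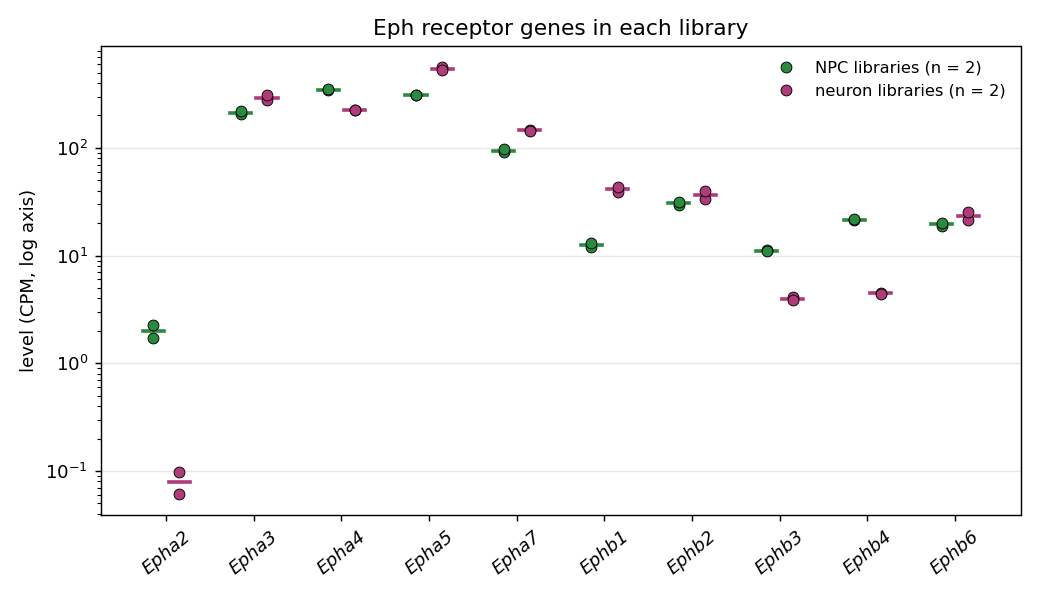
Level of each Eph receptor gene in CPM on a log axis, with 1 point per library (green, NPCs; magenta, neurons) and a bar at the mean of 2 libraries. Epha3, Epha4, Epha5 and Epha7 lie above the EphB genes and Epha2 in every library, as they do per kb of exon, and Epha2 goes from 2.00 down to 0.0791 CPM.

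Among EphA receptors, the abundant genes Epha4 and Epha5 moved in opposite directions. Epha4 encodes the receptor that binds ephrins of both classes and is known from the corticospinal tract and from radial glia. It was at 346 and 349 CPM in the NPC libraries and at 227 and 225 CPM in the neuron libraries. Both NPC libraries lay above both neuron libraries, with a log2 change of -0.62 ± 0.05 (edgeR adjusted p = 1.3e-08). Epha5, a receptor of ephrin-A ligands known from topographic mapping of axons, was at 309 and 308 CPM in NPCs and at 561 and 528 CPM in neurons. It was high in both neuron libraries, with a log2 change of 0.82 ± 0.05 and an adjusted p of 6.4e-10 in edgeR. The ratio of Epha4 to Epha5 counts within a library, which needs no scaling between libraries, was 1.12 and 1.13 in NPCs and 0.404 and 0.426 in neurons.

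The other abundant EphA genes rose in neurons. Epha3, a receptor with high affinity for ephrin-A5, was at 206 and 219 CPM in NPCs and at 276 and 312 CPM in neurons (log2 change 0.47 ± 0.06). Its neuron libraries differed from each other more than its NPC libraries did, and the groups did not overlap. Epha7, known from the regulation of neural progenitor survival and of cortical maps, was at 91.2 and 96.9 CPM in NPCs and at 147 and 145 CPM in neurons (log2 change 0.64 ± 0.06). Adjusted p in edgeR was 4.1e-06 for Epha3 and 2.0e-08 for Epha7.

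Epha2, known from epithelia and tumour vessels, was the receptor with the lowest level and the largest fall. It had 99.0 and 136 counts in the NPC libraries and 3 and 5 counts in the neuron libraries, which is 1.72 and 2.28 CPM against 0.0614 and 0.0969 CPM. The log2 change was -4.61 ± 0.42 (edgeR adjusted p = 3.3e-08). On summed counts, the NPC level was 25.2 times the neuron level, with a 95% interval of 12.6 to 59.0 that covers counting error only. Endothelial markers moved with it (12 of 12 toward NPCs, median log2 change -4.61), as did mural markers (7 of 7, median -4.54) and the other lists on the NPC side, and their part in the result was not tested.

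Among EphB receptors, Ephb1 rose and Ephb3 and Ephb4 fell. Ephb1, known from the guidance of retinal axons at the midline, was at 12.04 and 13.02 CPM in NPCs and at 39.3 and 43.5 CPM in neurons. It was high in both neuron libraries, and its log2 change of 1.73 ± 0.08 (edgeR adjusted p = 6.5e-12) was above that of the other 9 receptors. Ephb4, the ephrin-B2 receptor known as a marker of veins, was at 21.4 and 21.7 CPM in NPCs and at 4.51 and 4.43 CPM in neurons. It was low in both neuron libraries, with a log2 change of -2.27 ± 0.10 and an adjusted p of 2.7e-12 in edgeR. The ratio of Ephb4 to Ephb1 counts was 1.78 and 1.66 in the NPC libraries and 0.115 and 0.102 in the neuron libraries.

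Ephb3, which acts with Ephb2 in the formation of commissures, was at 11.2 and 11.0 CPM in NPCs and at 4.10 and 3.87 CPM in neurons. The groups were well apart, with a log2 change of -1.48 ± 0.12 and an adjusted p of 6.5e-09 in edgeR. The 3 receptors with a fall of at least 2-fold were thus Epha2, Ephb4 and Ephb3. Markers of several cell types moved the same way, with median log2 changes of -5.89 for oligodendrocyte precursors, -4.61 for endothelium, -4.54 for mural cells, -3.45 for the meninges, -2.51 for intermediate progenitors, -2.28 for radial glia and -1.06 for microglia. The part of these cell types in the Ephb4, Ephb3 and Epha4 values was not tested.

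Ephb2 and Ephb6 had small changes whose calls depended on the settings. Ephb2, a receptor of ephrin-B ligands at axons and synapses, was at 29.7 and 31.5 CPM in NPCs and at 33.4 and 39.7 CPM in neurons. Ephb6, whose kinase domain lacks catalytic activity, was at 18.99 and 19.99 CPM in NPCs and at 21.3 and 25.2 CPM in neurons. In both genes neuron library 1 lay just above the NPC libraries and neuron library 2 lay further up. The log2 changes were 0.25 ± 0.08 for Ephb2 (edgeR adjusted p = 0.010) and 0.26 ± 0.09 for Ephb6 (edgeR adjusted p = 0.016). Both calls were lost with upper-quartile factors (edgeR adjusted p = 0.0996 and 0.128) and with library size as the only scaling (0.611 and 0.632). They were also lost without neuron replicate 2 and without NPC replicate 1, fits that leave a group without duplicates. The Ephb6 call was also lost when genes under 5 CPM were left out (0.0553). Without neuron replicate 2 the log2 changes became 0.13 for Ephb2 and 0.14 for Ephb6, and without neuron replicate 1 they became 0.38 for each. With library size only, they became 0.05 for each, under a scaling that moved the median of all genes by -0.21, and relative to that median they were 0.27 for Ephb2 and 0.28 for Ephb6.

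**Figure D2:**
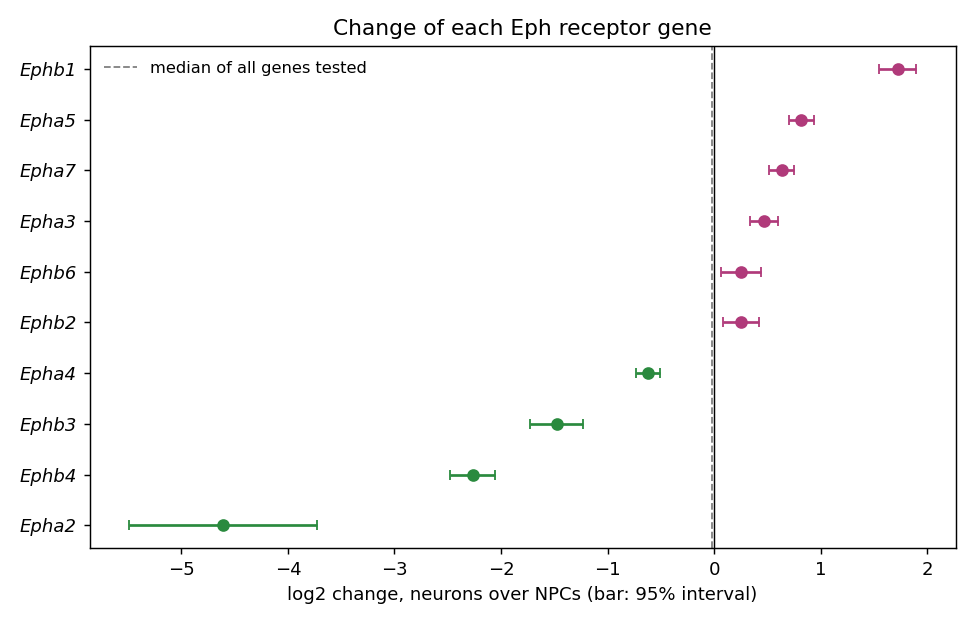
Log2 change of each Eph receptor gene, neurons over NPCs, with its 95% interval from edgeR (n = 2 libraries per group), and the median of all genes tested as a dashed line. Ephb1 at 1.73 and Epha2 at -4.61 are the ends of the range, and Ephb2 and Ephb6 lie nearest to 0.

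Levels of different receptors were compared per kb of exon, with lengths from GENCODE M21, since the annotation behind the counts is not given. Levels per kb are given as mean ± SD (n = 2 libraries). In NPCs the order was led by Epha4 at 54.9 ± 0.382 CPM per kb, followed by Epha3 at 33.8 ± 1.42 and Epha5 at 30.5 ± 0.104 CPM per kb. In neurons it was led by Epha5 at 53.9 ± 2.31, followed by Epha3 at 46.7 ± 3.99 and Epha4 at 35.7 ± 0.211 CPM per kb. Epha7 followed in both groups, at 12.4 ± 0.532 and 19.3 ± 0.222 CPM per kb. The order of Epha3 and Epha5 in NPCs rests on the exon lengths of 6.30 and 10.1 kb, since Epha5 had more counts.

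The order of the scarcer receptors also differed between groups. In NPCs the sequence was Ephb6 (5.18 CPM per kb), Ephb4 (4.92), Ephb2 (2.81), Ephb3 (1.94), Ephb1 (1.93) and Epha2 (0.510). In neurons it was Ephb1 (6.38 CPM per kb), Ephb6 (6.18), Ephb2 (3.35), Ephb4 (1.02), Ephb3 (0.697) and Epha2 (0.0202). Ephb1 thus went from place 9 to place 5 and Ephb4 from place 6 to place 8. These orders rest on the exon lengths too, since in CPM the order was Ephb2, Ephb4, Ephb6, Ephb1 and Ephb3 in NPCs and Ephb1, Ephb2, Ephb6, Ephb4 and Ephb3 in neurons, with Epha2 last in both. In the order per kb, the libraries of neighbours overlapped for Ephb3 and Ephb1 in NPCs and for Ephb1 and Ephb6 in neurons, and for no other neighbours.

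As a share of the summed receptor level per kb, Epha4 made up 37.2% and 36.6% in the NPC libraries and 20.9% and 20.3% in the neuron libraries. Epha5 made up 20.8% and 20.2% in NPCs and 32.4% and 29.8% in neurons. The 5 EphA genes together held 88.8% and 88.7% in NPCs and 90.3% and 89.3% in neurons, so the share of the class moved by less than those of Epha4 and Epha5. In CPM rather than per kb, the summed level of the 10 receptors was 1048 and 1073 in NPCs and 1314 and 1326 in neurons. The size of this rise depends on the scaling of the library totals. The scaling factors were 1.08 and 1.07 in NPCs and 0.928 and 0.933 in neurons.

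**Figure D3:**
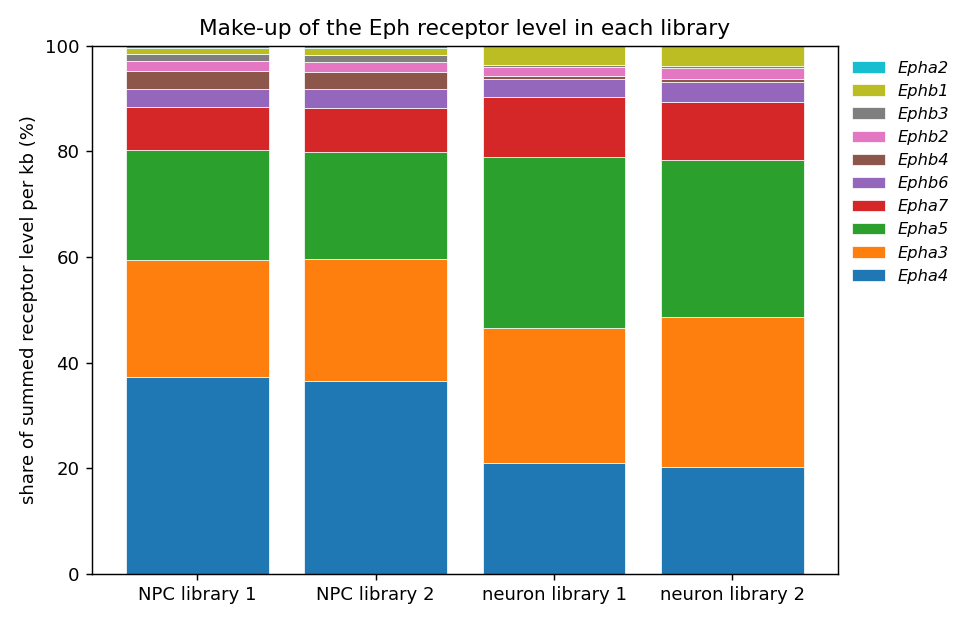
Share of each receptor gene in the summed level per kb of exon (%), with 1 stacked bar per library. The Epha4 part at the base shrinks from 37.2% and 36.6% in NPC libraries to 20.9% and 20.3% in neuron libraries, while the Epha5 part widens.

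The genes whose pattern over the 4 libraries was nearest to that of Ephb1, among 7950 genes averaging 20 CPM or more, were Stx1a, a gene of synaptic vesicle release (log2 change 1.73), Adamts3 (1.68) and Klhl29 (1.71). Their distances were 0.03, 0.07 and 0.07 on the log2 scale. Those nearest to Epha2 were the matrix gene Sparc (-4.03), the basement membrane collagen gene Col4a2 (-4.29) and Igfbp7 (-4.26), at larger distances of 0.47, 0.49 and 0.50. With 2 groups of 2 libraries, such likeness is mainly a like log2 change. The distances used log2 CPM values, which damp the change of a gene with few counts such as Epha2.

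The 4 other Eph receptor genes were scarce. Epha1, Epha6, Epha8 and Epha10 each had a mean of at most 1.12 CPM in either group. Epha6, Epha8 and Epha10 were higher in neurons, with log2 changes of 1.78 ± 0.39, 1.37 ± 0.45 and 2.39 ± 0.79 (edgeR adjusted p = 7.0e-04, 0.013 and 0.012). Summed over libraries these were 38 against 114 counts for Epha6, 21 against 47 for Epha8 and 6 against 28 for Epha10, in NPCs and neurons. Epha1 had 47 summed counts in NPCs and 20 in neurons and did not pass (adjusted p = 0.059 in edgeR). Exons of Epha1, Epha6 and Epha10 overlap opposite-strand genes in GENCODE M21, Zyx in the case of Epha1, and the use of strand in the counts is not given.

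Among the 8 ephrin genes, 4 rose in neurons, 2 fell and 2 did not pass, beside 35.8% and 36.9% of all genes called higher in neurons and in NPCs. The median log2 change was 0.11, beside -0.02 over all genes tested. The ephrin-B genes moved in both directions. Efnb1 was at 142 and 135 CPM in NPCs and at 61.9 and 62.5 CPM in neurons (log2 change -1.15 ± 0.06). Efnb2, the ligand of EphB4 in vessels and of several receptors on axons, was at 134 and 135 CPM in NPCs and at 224 and 241 CPM in neurons, a change of 0.79 ± 0.06. Efnb3 was at 21.3 and 19.8 CPM in NPCs and at 39.4 and 44.7 CPM in neurons, a change of 1.03 ± 0.08. The NPC and neuron libraries did not overlap for any of these 3 genes, as was so for 86.0% of all genes tested. The ratio of Efnb1 to Efnb2 counts was 1.05 and 1.00 in NPC libraries and 0.276 and 0.259 in neuron libraries.

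Of the ephrin-A genes, Efna3 was at 2.09 and 2.93 CPM in NPCs and at 11.4 and 13.8 CPM in neurons (log2 change 2.33 ± 0.15), and some of its exon bases overlap the opposite-strand gene Gm15998. Efna1, known from vessels and epithelia, was at 7.52 and 7.99 CPM in NPCs and at 2.51 and 1.59 CPM in neurons, a change of -1.93 ± 0.18. Efna2 rose by a log2 change of 0.25 ± 0.06 with the scaling used here. This rise is close in size to the shift of -0.21 in the median of all genes with library size only. Whether the Efna2 call holds under library size only is not given here. Efna4 (-0.03, 95% interval -0.20 to 0.13) and Efna5 (-0.11, 95% interval -0.38 to 0.16) did not pass. With library size only, the counts of ephrin genes became 3 higher in neurons and 4 higher in NPCs, beside 3840 and 7610 of all genes tested, whose median moved by -0.21.

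**Figure D4:**
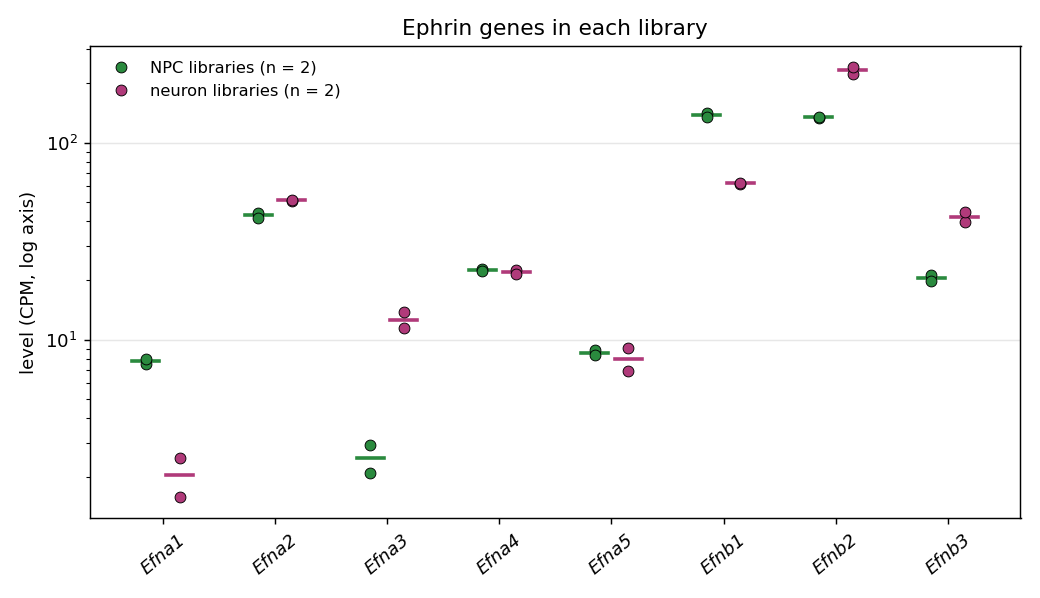
Level of each ephrin gene in CPM on a log axis, with 1 point per library (green, NPCs; magenta, neurons) and a bar at the mean of 2 libraries. Efnb1 and Efna1 lie higher in NPCs, Efnb2, Efnb3 and Efna3 lie higher in neurons, and the libraries of Efna4 and Efna5 overlap.

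Of 38 genes that encode partners of Eph and ephrin signalling, 22 rose in neurons, 11 fell and 5 did not pass. Of all genes tested, 35.8% were higher in neurons and 36.9% higher in NPCs. The median log2 change was 0.18 over the partners and -0.02 over all genes tested. With library size only the split was 15 toward neurons and 14 toward NPCs, beside 3840 and 7610 of all genes tested. Those with the smallest p among the genes higher in neurons were Pak1, a kinase that acts after Rac and Cdc42 (log2 change 1.53 ± 0.05), Itsn1, an exchange factor for Cdc42 (1.40 ± 0.05), Chn1, the Rac-inactivating chimaerin known from Epha4 signalling (1.12 ± 0.05), and Kalrn, an exchange factor for Rac (0.88 ± 0.05). Chn1 was at 109 and 109 CPM in NPCs and at 237 and 236 CPM in neurons, a rise in the libraries where Epha4 itself was lower. Those with the smallest p among the genes higher in NPCs were the adaptor gene Grb10 (-2.43 ± 0.06), Inppl1, which encodes a lipid phosphatase that binds Epha2 (-2.10 ± 0.08), the adaptor gene Nck1 (-1.55 ± 0.08) and Rgs3, a regulator of G proteins that acts behind ephrin-B ligands (-1.22 ± 0.07). Inppl1 was at 52.8 and 54.9 CPM in NPCs and at 11.5 and 13.6 CPM in neurons.

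Scaling of the libraries moved the size of the changes. With library size only, the median log2 change of all genes tested moved by -0.21, and with upper-quartile factors it moved by -0.10. Relative to the median under library size only, the changes were 1.74 for Ephb1, 0.84 for Epha5, 0.65 for Epha7, 0.49 for Epha3, 0.28 for Ephb6 and 0.27 for Ephb2, and -0.60 for Epha4, -1.46 for Ephb3, -2.25 for Ephb4 and -4.59 for Epha2. All 10 receptors kept their direction under the 11 alternatives, except that Epha2 could not be fitted under the filter of 5 CPM. Of the 10 receptors, 8 kept their call, the exceptions being Ephb2 and Ephb6. The 4 alternatives that leave out a library leave its group without duplicates. The spread there comes from the other group only, so a call kept there is a weak check.

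**Figure D5:**
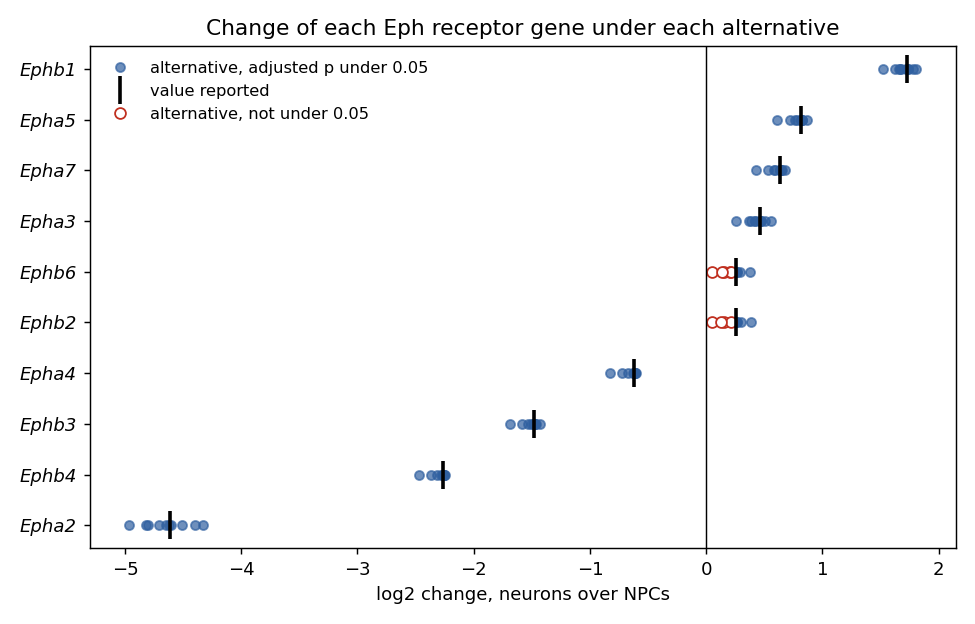
Log2 change of each Eph receptor gene as reported (black bar) and under each alternative (points, filled where the adjusted p was under 0.05 and open where it was not). Open points occur for Ephb2 and Ephb6, and no gene has points on both sides of 0.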

How the data were processed

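The authors deposited 1 table of estimated counts per gene for 4 libraries, and per the labels' protocols RNA of cells sorted by fluorescence was taken through TRIzol and an Illumina library kit. All 88416 values below 10000 were multiples of 1/101 within 0.01 base, which is what base coverage over a 101-base read would give. The submitters' processing notes list TopHat 1.2.0, SAMtools 0.1.18, CASAVA 1.9 and the mm9 build without roles. For the counter, annotation, strand setting and multiply aligned reads, the method is not given in the sources used here. Groups were taken from the sample titles.

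Counts were rounded, filtered with filterByExpr (15292 of 23240 rows left) and scaled with TMM, and CPM uses the scaled library sizes. Neurons were compared with NPCs in edgeR 4.0.16 (R 4.3.3) by its quasi-likelihood F test, two-sided and without pairing, with Benjamini-Hochberg adjustment over all genes tested and a threshold of 0.05. The standard error was derived as change over root F. The variance of each gene was drawn toward that of other genes, with a median of 13.9 prior and 2 residual degrees of freedom. The test was checked on simulated counts with the same spread setting for every gene and both groups. That check does not cover the unequal spread of the real duplicates. Duplicates differed by more than sampling noise (chi-square per gene 4.56 in NPCs and 14.1 in neurons). Alternatives were DESeq2 1.42.0, limma-voom (limma 3.58.1), other scalings and filters, a replicate block and leaving out each library. Start site sequences are from RefSeq and exon lengths from GENCODE M21, both on GRCm38, and all 10 receptors were matched by symbol. The table holds no gene coordinates.

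The members, gene lists and tests were chosen with earlier results of these data known. All receptors, other Eph genes and ephrins are named, with the 4 partners of smallest p in each direction and the 3 genes nearest in pattern to the receptors with the highest and the lowest change.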

Additional observations from a re-analysis of the deposited data

How the results depend on the processing

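Each count and each receptor's change was recomputed under 11 alternatives. Of 88 counts, 86 stayed within 1.5 times the reported count. The exceptions were the ephrin genes higher in NPCs, reported as 2, which became 4 with library size only (a scaling that shifts all genes by a median of -0.21) and 1 when genes under 5 CPM were left out, which tests fewer genes (10990). Of 109 receptor values, 100 kept their direction and side of the threshold, and the other 9 were those of Ephb2 and Ephb6 given above. No value is given for Epha2 under the filter of 5 CPM, which it does not pass. When each library was left out in turn, each receptor kept its direction. Those fits leave a group without duplicates, so the calls and counts that they give are a weak check. All tested genes higher in neurons ranged from 3840 with library size only to 5590, beside 7610 higher in NPCs with library size only and 4144 to 6582 otherwise.

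Same-numbered libraries did not clearly deviate together (r = 0.07 across genes of at least 20 CPM, which are not independent replicates), and the labels do not say that a number marks a shared litter. With the replicate block, 6 receptors were higher in neurons and 4 in NPCs, 4 and 2 ephrins, 22 and 11 partners, and 5509 and 5697 of all genes, and it changed no call of a receptor. Depth limits the low genes, since Epha2 rests on 3 and 5 counts in neurons.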

Other observations

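Some related genes within the list of partners went different ways and others were called in the same direction. The genes named here were picked after their values were seen. The adaptor pair Nck1 and Nck2 changed in opposite directions, Nck1 from 39.4 ± 1.48 down to 13.5 ± 1.09 CPM and Nck2 from 67.4 ± 2.18 up to 107 ± 3.95 CPM in neurons (mean ± SD, n = 2). The ratio of Nck1 to Nck2 counts was 0.583 and 0.587 in NPC libraries and 0.121 and 0.129 in neuron libraries. The kinase pair Abl1 and Abl2 also split, with log2 changes of -1.08 ± 0.07 and 0.34 ± 0.06. The chimaerin pair Chn1 and Chn2 were both called higher in neurons, with log2 changes of 1.12 ± 0.05 and 0.18 ± 0.06. The Chn2 change was smaller in size than the shift of -0.21 in the median of all genes with library size only. Its direction under that scaling is not given here.

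Ephb2 and Ephb6 kept nearly the same ratio of counts in every library, at 1.57 and 1.58 in NPCs and 1.57 and 1.57 in neurons.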
